A study of Mus musculus with 20 samples.

Results

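The tropomyosin genes Tpm1, Tpm2, Tpm3 and Tpm4 and all 45 of their transcripts were followed through skin and skeletal muscle of the mouse hindlimb. The members were taken by gene name from the annotation, and they are 4 of 35579 genes and 45 of 116116 transcripts in the files. Tpm1 has 21 of these transcripts, Tpm2 has 6, Tpm3 has 16 and Tpm4 has 2. The 20 RNA sequencing libraries came from wild-type C57BL/6J mice, 10 from skin (batch 1) and 10 from muscle (batch 2). The left hindlimb had received 35 Gy of electrons 70 days earlier, at ultra-high dose rate (FLASH, 4 libraries per tissue) or at conventional dose rate (CONV, 3 libraries), or a sham treatment without irradiation (sham, 3 libraries). The labels give no age and do not say whether libraries of a group came from separate animals, and the spread behind each p-value may therefore be technical. All skin was in one batch and all muscle in the other, so tissue and batch cannot be told apart.

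Tropomyosins are coiled-coil dimers that lie along actin filaments. In striated muscle they hold or release the myosin binding sites on actin under the control of troponin and calcium, and in other cells they set which myosins and other proteins reach a filament. Tropomyosin genes give several proteins through alternative starts and mutually exclusive exons, though Tpm4 has only 1 complete coding transcript in the annotation used here. Exon 1a opens the long forms and exon 1b, which has its own promoter, opens the short forms. The complete coding transcripts of Tpm2 all open with exon 1a. Exon 6 comes as 6a or 6b, and the last coding exon is 9a in the striated forms and 9d in most smooth muscle and cytoskeletal forms. Tpm1 makes the main tropomyosin of fast fibres and heart, Tpm2 the beta-tropomyosin of skeletal and smooth muscle, Tpm3 the slow fibre tropomyosin and a set of cytoskeletal forms, and Tpm4 a cytoskeletal form.

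The alternative last exons are shown because their estimated shares had separate ranges in the tissues, though not in the same direction for each gene. Among transcripts with a complete coding sequence, exon 9a took a larger share in muscle for Tpm1 and Tpm3. For Tpm2 it took 58.7% to 61.1% in muscle and 62.0% to 91.6% in skin, ranges that nearly touched. The bases of exon 9d of Tpm2 also lie in a transcript that ends in 9a, so the shares of Tpm2 are estimates of kallisto's model. These shares were not tested between the tissues. The sequences are the coding bases of each exon in the GENCODE M21 transcripts (assembly GRCm38), read 5′ to 3′ on the gene's strand, and the capitals in exon 9d mark bases that differ from exon 9a of the same gene at the same place.
Tpm1 exon 9a, chr9:67029664-67029742, minus strand: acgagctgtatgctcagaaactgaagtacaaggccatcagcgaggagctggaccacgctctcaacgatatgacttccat
Tpm1 exon 9d, chr9:67023362-67023441, minus strand: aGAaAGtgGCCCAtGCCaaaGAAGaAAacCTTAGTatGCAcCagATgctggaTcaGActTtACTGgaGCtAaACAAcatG
Tpm2 exon 9a, chr4:43515924-43516003, minus strand: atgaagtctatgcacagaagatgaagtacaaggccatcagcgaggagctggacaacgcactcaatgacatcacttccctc
Tpm2 exon 9d, chr4:43514782-43514861, minus strand: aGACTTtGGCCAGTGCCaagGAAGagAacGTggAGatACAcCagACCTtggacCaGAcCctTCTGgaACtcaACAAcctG
Tpm3 exon 9a, chr3:90091013-90091091, plus strand: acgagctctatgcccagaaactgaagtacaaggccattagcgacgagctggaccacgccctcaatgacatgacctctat
Tpm3 exon 9d, chr3:90099528-90099607, plus strand: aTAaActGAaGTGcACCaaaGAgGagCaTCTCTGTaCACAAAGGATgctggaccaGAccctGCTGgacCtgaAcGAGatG
Exon 9a shared 82.3% to 88.6% of its bases between genes. Within a gene, 9a and 9d shared 43.0% of bases in Tpm1, 41.2% in Tpm2 and 45.6% in Tpm3. The exon 6 pair of Tpm1 is given as the other switch, with the capitals marking where 6b differs from 6a.
Tpm1 exon 6a, chr9:67032466-67032541, minus strand: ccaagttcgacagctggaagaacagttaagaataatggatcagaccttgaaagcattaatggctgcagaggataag
Tpm1 exon 6b, chr9:67031951-67032026, minus strand: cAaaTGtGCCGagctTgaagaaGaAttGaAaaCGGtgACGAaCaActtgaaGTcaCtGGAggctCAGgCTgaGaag
In Tpm1 43 of the 76 bases of 6a and 6b were identical, against 41 in Tpm2 and 39 in Tpm3.

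Tpm3 has a promoter for each class of start, and both are printed because transcripts from each start are described below. The windows are from RefSeq (GRCm38.p6), run from 250 bases before to 50 after the annotated start, and carry in capitals the E-box, CANNTG, that a search of both strands found.
Tpm3 start of the long forms (exon 1a), chr3:90072401-90072700, plus strand: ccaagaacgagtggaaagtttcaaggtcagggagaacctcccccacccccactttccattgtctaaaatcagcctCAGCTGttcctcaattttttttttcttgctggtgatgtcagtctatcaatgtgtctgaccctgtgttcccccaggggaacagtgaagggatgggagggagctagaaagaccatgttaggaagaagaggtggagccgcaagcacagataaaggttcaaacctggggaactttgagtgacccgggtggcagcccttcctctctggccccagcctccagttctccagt
Tpm3 start of the short forms (exon 1b), chr3:90079271-90079570, plus strand: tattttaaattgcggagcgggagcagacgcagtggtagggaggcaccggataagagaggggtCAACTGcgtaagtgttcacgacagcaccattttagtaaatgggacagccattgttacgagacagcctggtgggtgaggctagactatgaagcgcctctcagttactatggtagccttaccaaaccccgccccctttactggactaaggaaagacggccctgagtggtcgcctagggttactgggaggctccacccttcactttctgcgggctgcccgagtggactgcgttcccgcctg
Each window held 1 E-box, as did 72.3% of 32851 mouse promoter windows with 1 or more. Neither held a TATAAA sequence (13.6% of windows), a CATTCC sequence (the M-CAT motif, 14.7%), a CArG box (1.6%) or a MEF2 site (3.2%). These are letter matches only.

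The genes lie on different chromosomes. Tpm1 (ENSMUSG00000032366) is at chr9:67022590-67049406 on the minus strand, Tpm2 (ENSMUSG00000028464) at chr4:43514711-43523765 on the minus strand, Tpm3 (ENSMUSG00000027940) at chr3:90072649-90100902 on the plus strand and Tpm4 (ENSMUSG00000031799) at chr8:72134975-72153142 on the plus strand. Of the 45 transcripts, 25 carry a complete coding sequence in the annotation and 20 do not (retained introns, partial transcripts and targets of nonsense-mediated decay). Tpm3-rs7, a retrocopy of Tpm3 on chromosome 14, could share reads with Tpm3. It was listed at 0.0457 to 0.459 TPM in skin and at no more than 0.0889 TPM in muscle, against 14.1 TPM or more for Tpm3 in every library.

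The estimated counts of a library summed to between 24396463 and 33250762 in skin and between 10198699 and 12336479 in muscle. In 7 records, 2 of skin and 5 of muscle, the file bears a name that belongs to a different record, always between sham and FLASH or within FLASH. Groups here follow the record, and CONV against the other 7 libraries of its tissue, called the rest, is the same under either assignment. A pair of skin libraries, sham replicate 1 and FLASH replicate 2, stood apart. Their 12 fast fibre genes summed to 28600 and 29390 CPM (counts scaled to library size), against 85.2 to 3807 in the other 8 skin libraries and 67980 to 97600 in muscle. Keratinocyte genes marked the skin, with 8150 to 43130 CPM over 7 genes against 6.56 to 20.9 CPM in muscle, where 1 or 2 of the 7 were at 0 in every library of a group.

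Muscle held mostly Tpm1 RNA. On the TPM scale, which is relative to transcript length and to all RNA in a library, Tpm1 was 7674, 5024 and 6415 in sham muscle, while FLASH had 5662, 7568, 5763 and 6394 and CONV 7387, 4723 and 5184, in order of replicate. The groups overlapped throughout. Tpm1 made up 67.1% to 88.8% of the summed TPM of the 4 genes in muscle and 30.5% to 65.3% in skin.
Tpm2 was 1207, 2069 and 1235 TPM in sham muscle, while FLASH had 1645, 1032, 1738 and 1110 and CONV 904, 1686 and 1672, again with overlapping groups. Tpm3 ranged most, from 14.1 TPM in FLASH replicate 3 to 617 TPM in CONV replicate 2, and Tpm4 stayed between 5.14 and 13.8 TPM.

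Skin spread far more. Tpm1 was 5089, 356 and 600 TPM in sham skin, while FLASH had 474, 5446, 666 and 325 and CONV 978, 767 and 381. The high values belonged to the same pair of libraries that were rich in fast fibre genes. Tpm2 did likewise, with 2493, 37.4 and 204 TPM in sham, while FLASH had 258, 2562, 219 and 113.7 and CONV 256, 349 and 171. Tpm3 ran from 260 to 466 TPM over the 10 skin libraries and was not raised in that pair, which had 263 and 260 TPM. In the other 8 skin libraries Tpm3 took 17.9% to 40.2% of the summed tropomyosin TPM, a share that reached 8.77% at most in muscle.

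**Figure D1:**
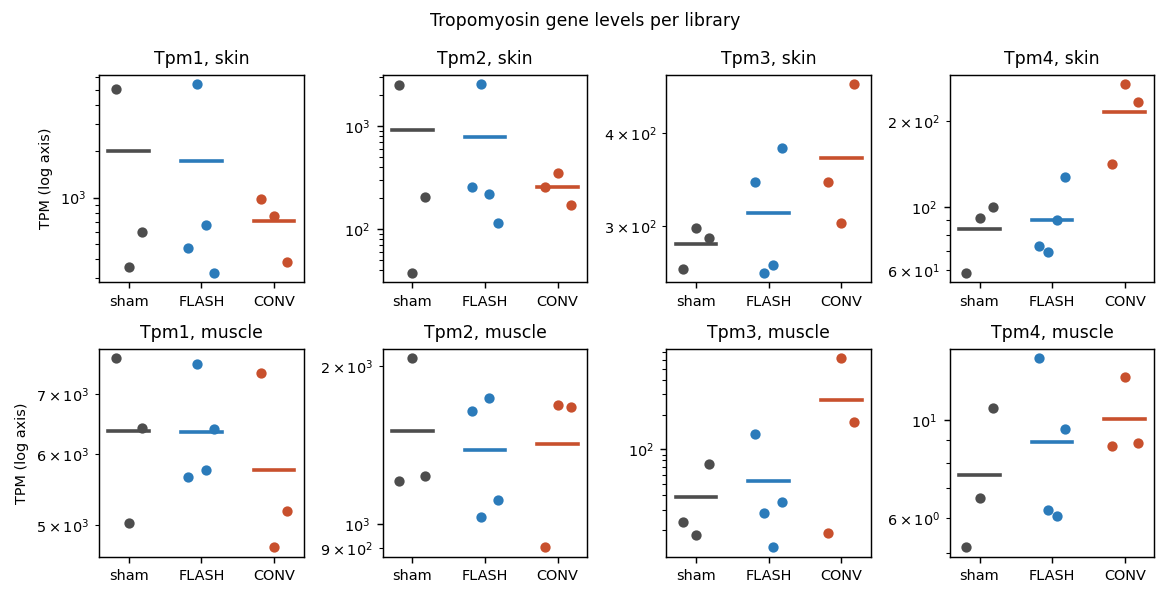
TPM of each tropomyosin gene in skin (upper row) and muscle (lower row) on log axes that differ between panels. Each dot is a library and each line a group mean of 3 sham, 4 FLASH or 3 CONV libraries. The CONV libraries sit above all others for Tpm4 in skin, at 142 to 271 TPM, while for Tpm1 and Tpm2 in skin the spread within sham and FLASH covers CONV.

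Between the tissues, 3 of the 4 genes differed. With TMM scaling, edgeR's quasi-likelihood test put Tpm1 lower in skin than in muscle by a log2 fold change of -5.07 ± 0.56 (SE, 10 libraries per tissue, adjusted p = 2.26e-07) and Tpm2 lower by -4.01 ± 0.73 (adjusted p = 9.61e-05). Tpm4 was higher in skin, at 0.94 ± 0.19 (adjusted p = 0.000263). Tpm3 was at -0.20 ± 0.45 (adjusted p = 0.694). The test called 77.0% of 19199 genes, with a median log2 fold change of 0.40, so calls were the rule between these tissues. The scale matters for such a contrast, since a few genes fill the muscle libraries: on library totals without TMM the median of all genes moved to 2.72, Tpm1 and Tpm2 stayed lower in skin at -2.80 and -1.78, and Tpm3 became higher in skin at 2.10 ± 0.50 (adjusted p = 0.000797). Relative to that median, Tpm3 was below it on both scales. In bulk samples, fewer cells of a type and less RNA per cell cannot be told apart.

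The proteins that work with tropomyosin on the filament split in the same comparison. Of 14 thin filament partners (troponins, sarcomeric actins, tropomodulins, leiomodins and nebulin), 13 were lower in skin and 1 higher. The troponin subunit gene Tnnc2 was at -7.80 ± 1.03, the troponin T gene Tnnt3 at -7.17 ± 1.01 and the tropomodulin gene Tmod4 at -5.36 ± 0.64, while Tnnt2, the troponin T of heart, was the higher one at 2.52 ± 0.28 (adjusted p of the 4 at most 5.16e-06). Of 15 cytoskeletal actin partners, 12 were higher in skin and 2 lower. Among the higher were Actn1 at 2.79 ± 0.18 and Actn4 at 1.85 ± 0.13, the non-muscle alpha-actinins, the tropomodulin gene Tmod3 at 1.29 ± 0.09 and the calponin gene Cnn2 at 2.16 ± 0.16 (adjusted p at most 1.17e-09). The medians of the lists were -5.04 and 1.25 beside 0.40 over all genes. Of all 19199 genes tested, 9013 were called higher in skin and 5761 lower. The list counts are those with TMM scaling and were not repeated on library totals, where the median of all genes moved as stated above.

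The tissues differed as sharply in which transcripts of a gene they held. The test compared, per transcript, the log2 ratio of its TPM to that of the other transcripts of its gene, with 0.1 TPM added to each. Of 32 tropomyosin transcripts tested with limma, 26 differed between skin and muscle, 20 with a higher share in skin and 6 with a lower one, where the test called 52.4% of 72434 transcripts over all genes. All 11 tested transcripts of Tpm1 were called, 4 of 6 of Tpm2, 9 of 13 of Tpm3 and both of Tpm4. The calls of Tpm4 turned on the added amount: with 1 TPM added, Tpm4-201 went from -2.16 to 0.32 and Tpm4-202 from 2.16 to -0.32 (adjusted p = 0.350 and 0.345), and edgeR's diffSpliceDGE did not call Tpm4-201 (adjusted p = 0.954).

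In muscle, Tpm1 was close to a single transcript. Tpm1-205 carries exons 1a, 2b, 6b and 9a, the striated form, and held 94.9% to 97.5% of Tpm1 TPM in the 10 muscle libraries. It held 9.98% to 49.4% in skin, and its log2 ratio to the rest of the gene was lower in skin by -6.11 ± 0.41 (limma, adjusted p = 4.24e-09), a call that diffSpliceDGE did not make (adjusted p = 0.145). In skin the remainder was split among Tpm1-219, Tpm1-218, Tpm1-201, Tpm1-214 and Tpm1-211, which had mean shares of 18.8%, 8.82%, 7.07%, 6.72% and 6.16%. Tpm1-211 (exons 1b, 6b and 9d) and Tpm1-214 (exons 1a, 2a, 6a and 9d) were listed at 0 in all 10 muscle libraries and took 0.212% to 18.3% and 0.114% to 15.6% of Tpm1 in skin. Their ratios were higher in skin by 11.05 ± 0.82 (adjusted p = 1.19e-08) and 11.02 ± 0.92 (adjusted p = 5.04e-08), sizes that rest on the added 0.1 TPM.

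Tpm1-219 needs separate mention. It is a 649-base processed transcript with no complete coding sequence, and 84.9% of its bases lie within bases 23 to 573 of Tpm1-205. It was listed at 2629 and 2454 TPM in skin sham 1 and FLASH 2, the pair rich in fast fibre genes, and at 325 TPM in CONV 2. The other 7 skin libraries had 0.330 to 119 TPM, and the muscle libraries, where Tpm1-205 was at 4480 to 7409 TPM, had 3.60 to 27.2 TPM. As a share of Tpm1 that is 51.7%, 45.1% and 42.4% in those 3 skin libraries against 0.0624% to 0.555% in muscle. The cause of this split of reads was not tested. Shares are therefore also given below among transcripts with a complete coding sequence only.

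**Figure D2:**
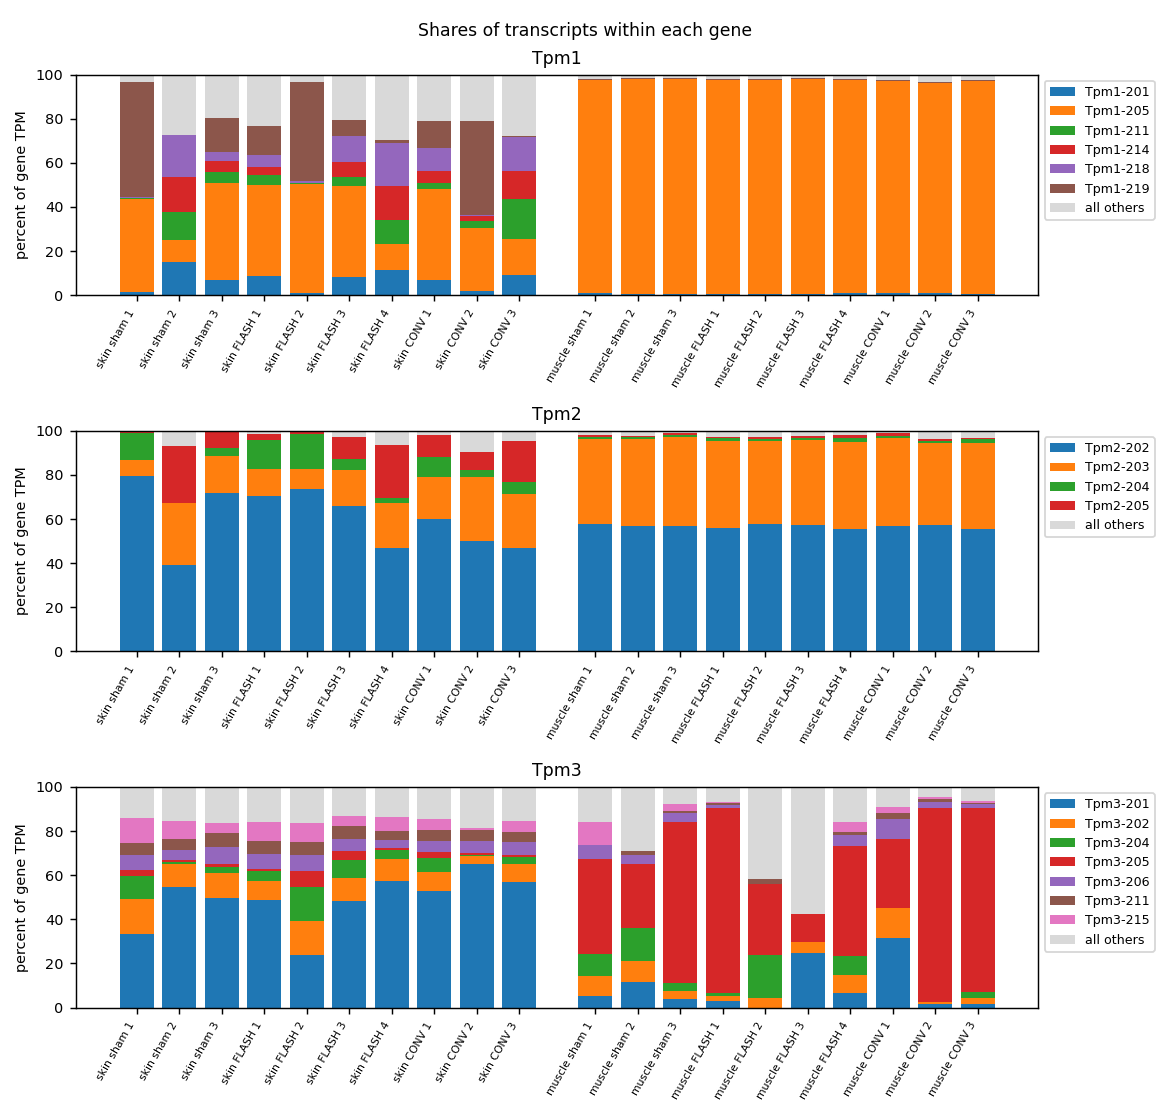
Share of each transcript in the TPM of Tpm1, Tpm2 and Tpm3 (percent, each bar 1 library, skin on the left and muscle on the right). Transcripts with a mean share of 5% or more in a tissue have a colour and all others are grey. Tpm1-205 fills 94.9% to 97.5% of the muscle bars, the Tpm2 bars of muscle are nearly alike, and the Tpm3-205 share in muscle runs from 12.4% to 87.9%.

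Among Tpm1 transcripts with a complete coding sequence, the share of TPM ending in exon 9a rose with the fast fibre genes in skin over 3 levels. Inside the lower levels the libraries did not keep that order. Skin sham 2, FLASH 4 and CONV 3, with 85.2, 352 and 480 CPM of fast fibre genes, had 38.7%, 37.3% and 34.7% of this TPM in transcripts ending in 9a. The 5 libraries from 2061 to 3807 CPM (FLASH 1, sham 3, FLASH 3, CONV 2 and CONV 1) had 60.6% to 71.2%. Sham 1 and FLASH 2, near 29000 CPM, had 94.6% and 95.7%, close to the 98.0% to 99.1% of muscle. Each of these 3 levels held libraries of sham and FLASH, and all but the highest also held CONV.
The 9d transcripts of Tpm1 moved much less. They summed to 113, 104 and 157 TPM in the 3 skin libraries lowest in fast fibre genes and to 50.5 and 73.5 TPM in the pair richest in them, while the 9a transcripts went from 78.1 to 2760 TPM. In muscle the 9d transcripts of Tpm1 summed to 27.9 to 59.7 TPM. Short forms opened by exon 1b were 25.6 to 85.0 TPM in skin and 11.8 to 24.7 TPM in muscle, ranges that nearly touched. They were not tested between the tissues, and TPM is relative to all RNA in a library.

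**Figure D3:**
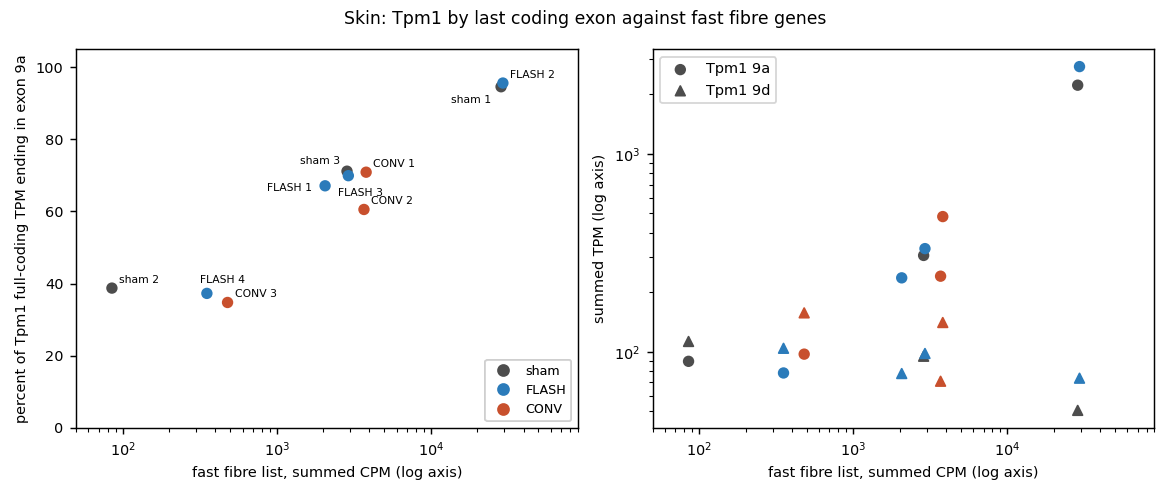
Tpm1 in the 10 skin libraries against the summed CPM of 12 fast fibre genes (log axis). The left panel gives the percent of complete coding Tpm1 TPM in transcripts ending in exon 9a, from 34.7% to 95.7%, and the right panel the summed TPM of 9a (dots) and 9d (triangles) transcripts on a log axis. Colours mark sham, FLASH and CONV, and the 9d values stay between 50.5 and 157 TPM.

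Tpm2 had a mixture of 2 main transcripts in muscle. Tpm2-202 (exons 6b and 9a, the skeletal form) was 56.8% ± 0.8 and Tpm2-203 (exons 6a and 9d, the form known from smooth muscle) 38.8% ± 1.0 of Tpm2 TPM (SD, n = 10 muscle libraries). This held although Tpm2 itself changed from 904 to 2069 TPM between those libraries. Of the 1164 bases of Tpm2-203, 880 also lie in Tpm2-202, those of exon 9d among them. The split between these transcripts is therefore an estimate of kallisto's model, and the SD does not measure its error. In skin, Tpm2-202 was 39.2% to 79.5% and Tpm2-203 7.34% to 29.2%. The ratio of Tpm2-203 to the rest of the gene was lower in skin by -1.59 ± 0.26 (limma, adjusted p = 7.30e-05), a call that diffSpliceDGE did not make. That of Tpm2-202 was at 0.24 ± 0.29 (limma, adjusted p = 0.511). The 9 smooth muscle genes summed to 351 to 1617 CPM in skin and 1439 to 1984 CPM in muscle, with Des, which skeletal fibres also express, among them. The myosin of smooth muscle, Myh11, was at 3.02 to 12.8 TPM in muscle and 5.30 to 22.1 TPM in skin. Their part in the Tpm2-203 share was not tested. The partial transcripts Tpm2-204 and Tpm2-205, with 0 to 15.8% and 0.9% to 25.9% in skin, were near 1% in muscle and had higher ratios in skin, at 2.10 ± 0.57 (adjusted p = 0.0055) and 3.18 ± 0.63 (adjusted p = 0.000422).

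Tpm3-205 (exons 1a, 2b, 6b and 9a) is the slow fibre form, and Tpm3-201 (exons 1b, 6a and 9d) a short cytoskeletal form. Tpm3-205 took 12.4% to 87.9% of Tpm3 in muscle and 0.925% to 7.26% in skin, and its ratio was lower in skin by -6.15 ± 0.67 (limma, adjusted p = 1.04e-06). Tpm3-201 took 23.8% to 65.1% in skin and 0.000154% to 31.3% in muscle, with a ratio higher in skin by 4.22 ± 0.73 (adjusted p = 0.000132). Tpm3-202 and Tpm3-204, which mix the exons of both forms, had mean shares of 10.2% and 5.63% in skin and 5.96% and 6.10% in muscle and did not pass the test (adjusted p = 0.0566 and 0.734). Of the short entries without a complete coding sequence, Tpm3-206, Tpm3-211 and Tpm3-215 averaged 5.83%, 5.44% and 6.20% in skin and 3.38%, 1.22% and 2.31% in muscle.
By start, complete coding transcripts from exon 1b summed to 105.3 to 307 TPM in skin and 1.18 to 18.9 TPM in muscle. Those from exon 1a summed to 4.32 to 59.2 TPM in skin and 1.75 to 543 TPM in muscle, where the tissues overlapped. In skin 64.0% to 98.0% of the complete coding TPM came from exon 1b, and in muscle 3.36% to 35.5% in 8 libraries, 58.9% in CONV 1 and 70.6% in FLASH 3. This use of starts was not tested between tissues.

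Within muscle, Tpm3-205 was high in the libraries that were high in slow fibre genes, with such libraries in each treatment group of the record. It was 10.1, 5.23 and 54.9 TPM in sham, while FLASH had 113.9, 8.98, 1.75 and 17.2 and CONV 5.91, 542 and 145. The 9 slow fibre genes, none of them a tropomyosin, summed to 94.6, 50.4 and 490 CPM in sham, while FLASH had 960, 108, 27.4 and 280 and CONV 66.8, 4763 and 1885. Ordered by the slow fibre genes, the 10 libraries had the same order of Tpm3-205 except that sham 1 and FLASH 2, at 10.1 and 8.98 TPM, changed places. By library name, the sham group is instead sham 1, FLASH 2 and FLASH 3, with 10.1, 8.98 and 1.75 TPM of Tpm3-205. Their slow fibre genes summed to 27.4 to 108 CPM, so no sham library was high under that assignment. All other Tpm3 transcripts together were 12.3 to 28.5 TPM in 9 of the muscle libraries and 74.8 TPM in CONV 2.
Tpm3-205 rested on 13.6 to 4341 estimated counts in muscle, so that its share in the library with the fewest is imprecise.

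The balance of Tpm1 over Tpm2 also differed between muscle libraries. The TPM of Tpm1 over that of Tpm2 was 6.36, 2.43 and 5.20 in sham, while FLASH had 3.44, 7.33, 3.31 and 5.76 and CONV 8.18, 2.80 and 3.10. Each group had libraries in both the upper and the lower range, with none between 3.44 and 5.20. Myh4, the myosin heavy chain of the fastest fibres, was at 7631 to 11240 TPM in the 5 libraries with the higher ratio and at 6570 to 7423 TPM in the 5 with the lower one.

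**Figure D4:**
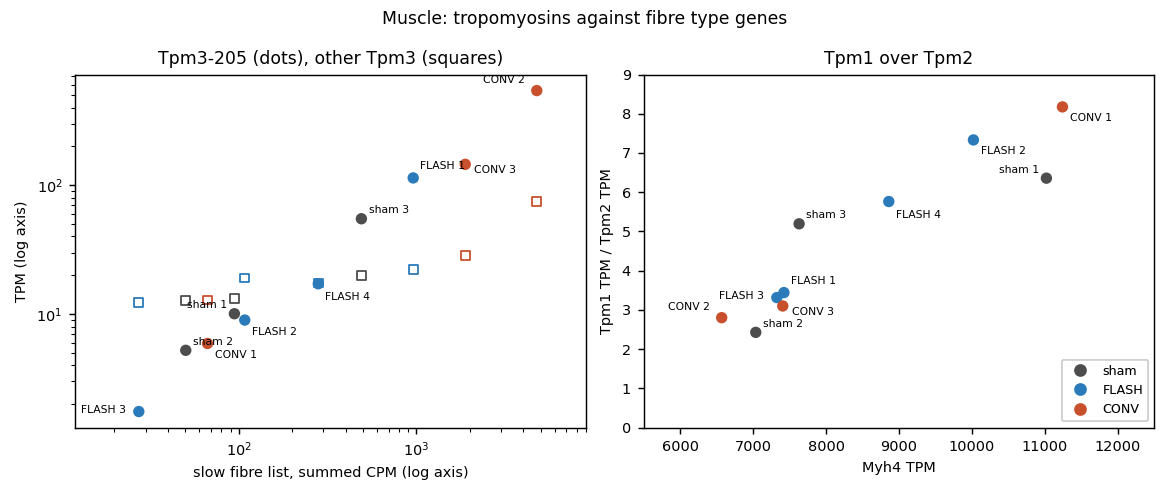
Tropomyosins in the 10 muscle libraries. The left panel plots Tpm3-205 (dots) and all other Tpm3 transcripts (squares) in TPM against the summed CPM of 9 slow fibre genes, both on log axes, and Tpm3-205 climbs from 1.75 to 542 TPM. The right panel plots the TPM of Tpm1 over that of Tpm2 against Myh4 TPM, with 5 libraries at 2.43 to 3.44 and 5 at 5.20 to 8.18. Colours mark sham, FLASH and CONV.

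The genes with the most similar profile were taken among protein-coding genes by Pearson's r of log2 CPM over the 10 libraries of a tissue, as a description. Libraries rich in muscle RNA weigh on all values in skin. In skin, the genes most like Tpm1 included Cox7a1 (r = 0.987), a muscle subunit of cytochrome oxidase, and Cystm1 (0.982). Tpm2 was most like Myoz3 (0.995) and Ldb3 (0.992), which encode proteins of the Z-disc, and Rbm24 (0.994), a muscle splicing factor. Tpm3 was most like Xbp1 (0.988), Sh3bgrl3 (0.984) and Actr2 (0.979), the last a subunit of the Arp2/3 actin nucleator, and Tpm4 was most like Gmppb (0.987), Mydgf (0.986) and the myeloid receptor gene Trem2 (0.986).
In muscle, Tpm1 was most like the intermediate filament gene Synm (0.987), Me1 (0.986), the malic enzyme, and Gpd2 (0.981), the mitochondrial glycerol phosphate dehydrogenase. The genes most like Tpm2 included the respiratory chain gene Ndufb8 (0.963) and Cnnm4 (0.951). Tpm3 was most like Tnni1 (0.983), the slow troponin I, Atp2a2 (0.980), the calcium pump of slow fibres, and Rp1 (0.976). Tpm4 was most like Adam15 (0.947), Retreg2 (0.927) and Arpc5 (0.916), another Arp2/3 subunit.

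Treatment was set against these differences next. In skin, Tpm4 was the member that changed, and it was higher after CONV. Its TPM was 58.8, 91.8 and 100.5 in sham, while FLASH had 73.0, 69.7, 90.5 and 128 and CONV 142, 271 and 234, so that every CONV library lay above every other. The group means were 83.7 ± 22.01 in sham (SD, n = 3), 90.3 ± 26.8 in FLASH (n = 4) and 215.5 ± 66.5 in CONV (n = 3). Against the rest, the log2 fold change of CONV was 1.51 ± 0.25 with an adjusted p of 0.0352 by edgeR's quasi-likelihood test, in a comparison that called 1.65% of 20026 genes. In TMM-scaled CPM the 3 CONV libraries lay above all 7 others for Tpm4 alone among the 4 genes and for 3.85% of all genes tested.
The call depended on single libraries, the size less so. Tpm4 lost it without sham 1, 2 or 3 (adjusted p = 0.0821, 0.09997 and 0.0918), without FLASH 1, 2 or 3 (0.0951, 0.0948 and 0.0748) and without CONV 2 or CONV 3 (0.0672 and 0.189), with log2 fold changes of 1.19 to 1.53 in these 8 fits. It kept it without FLASH 4 or CONV 1, at 1.63 and 1.77 (adjusted p = 0.00642 and 0.00579). Those fits called 1454 of 19903 and 1319 of 20383 genes. Without sham 1 and FLASH 2 together, the fold change was 1.35 and the adjusted p 0.197, and no gene was called.
Tpm4-201, its complete coding transcript, held 82.4% to 96.9% of the gene in skin, at 134, 223 and 227 TPM in CONV against 52.4 to 121.5 TPM in the rest.

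**Figure D5:**
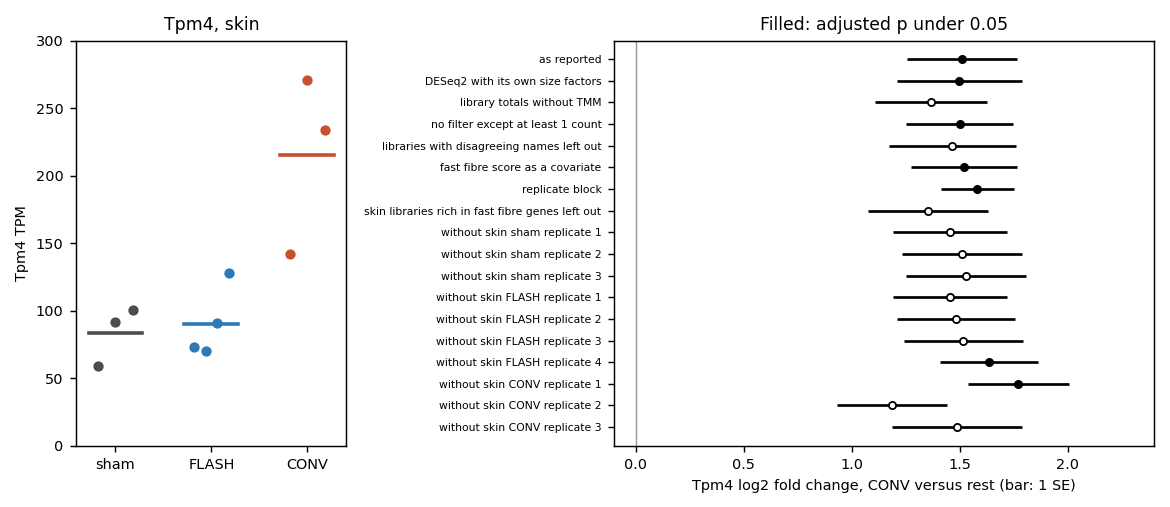
Tpm4 in skin. The left panel gives TPM per library (dots) with group means (lines), and the 3 CONV libraries at 142, 271 and 234 TPM lie above the other 7. The right panel gives the log2 fold change of CONV against the rest with 1 SE under each alternative, from 1.19 to 1.77, and filled points have an adjusted p under 0.05.

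Of the fibroblast and of the myeloid genes, 4 of 6 each were also higher in CONV skin than in the rest. That comparison called 1.65% of 20026 genes, with 317 of its 331 calls upward, and 3.85% of genes had all CONV libraries above the rest. The 6 fibroblast genes summed to 10220, 16920 and 28830 CPM in CONV skin against 5816 to 9111 in the rest. The 6 myeloid genes summed to 432.7 to 1163 CPM against 201.7 to 432.3, ranges that nearly touched. In CONV against sham 0 of 6 passed in either list. Against the rest, no gene at all was called without sham 1, 2 or 3 or without FLASH 1, 2 or 3, and 1 gene without CONV 3. Of the 5 endothelial genes 1 passed, and their sums of 257 to 700 CPM overlapped the 95.8 to 274.5 CPM of the rest. Of the 7 keratinocyte genes none passed, with 8150 to 43130 CPM in CONV and 10120 to 21620 CPM in the rest. The part of these cell types in the Tpm4 level was not tested.

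For the other members the same comparison gave no call in skin. Tpm3 was 263, 299 and 290 TPM in sham, while FLASH had 344, 260, 266 and 382 and CONV 344, 303 and 466, and its log2 fold change was 0.52 ± 0.16 (adjusted p = 0.105). FLASH 4 exceeded a pair of the CONV libraries. Tpm1 was at -0.99 ± 0.91 (adjusted p = 0.526) and Tpm2 at -1.74 ± 1.36 (adjusted p = 0.452), and both changed sign, to 0.56 and 0.74 (adjusted p = 0.315 and 0.472), when the pair rich in fast fibre genes was left out. None of the 14 thin filament partners or the 15 cytoskeletal partners passed. All 14 of the former had a negative estimate, with a median of -1.50, and 12 of the 15 latter a positive one, with a median of 0.44. The 14 genes summed to a mean of 753 CPM in CONV against 2130 CPM in the rest, and against 481 CPM in the rest without sham 1 and FLASH 2. The most abundant genes weigh most in such a sum, and the estimates of single genes without that pair are not given here.

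With sham, FLASH and CONV as separate groups, edgeR called no gene in skin (0.0% of 20026) in any of the 3 comparisons. Tpm4 was at 1.59 ± 0.34 for CONV against sham (adjusted p = 0.127) and at -1.45 ± 0.31 for FLASH against CONV (adjusted p = 0.249), and both it and Tpm3 had an unadjusted p under 0.05 there, as did 4035 and 2540 of the 20026 genes. DESeq2 called Tpm3 and Tpm4 in CONV against sham, where it called 1630 of 20026 genes, and Tpm4 in FLASH against CONV, where it called 457. Without CONV 1, edgeR also called Tpm4 in both, at 1.85 (adjusted p = 0.0349) and -1.71 (adjusted p = 0.046). FLASH against sham gave 0.14 ± 0.31 for Tpm4 and 0.17 ± 0.18 for Tpm3, and none of the 4 had an unadjusted p under 0.05 by edgeR or DESeq2. These comparisons share groups, so their values are not independent.

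In muscle no tropomyosin gene passed in any treatment comparison. CONV against the rest called 0.0612% of 13080 genes, CONV against sham 0.00765%, FLASH against CONV 0.00765% and FLASH against sham 0.0%. Tpm3 was 23.3, 18.1 and 74.9 TPM in sham, while FLASH had 136, 28.02, 14.1 and 34.6 and CONV 18.8, 617 and 174, and its log2 fold change for CONV against the rest was 2.28 ± 0.89 (adjusted p = 0.380). That value fell to 0.94 ± 0.95 without CONV 2, and to 0.27 ± 0.26 with the slow fibre genes as a covariate. Tpm1 was at -0.33 ± 0.15 (adjusted p = 0.404), Tpm2 at -0.21 ± 0.29 (adjusted p = 0.831) and Tpm4 at 0.08 ± 0.27 (adjusted p = 0.942). Tpm3 and Tpm1 had an unadjusted p under 0.05, as did 1555 of 13080 genes, and DESeq2 called neither. No member had all CONV libraries above the rest, as 1.98% of genes did. By library name, Tpm4 was 5.14 to 6.24 TPM in sham muscle, 6.67 to 13.8 TPM in FLASH and 8.73 to 12.5 TPM in CONV, also without a call. The sham and FLASH ranges nearly touched there, and how many of all genes split this way was not counted.

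The response of the tissues to CONV was compared as an interaction over all 20 libraries, which called 0.109% of 19199 genes. Tpm4 differed by 1.44 ± 0.40 (skin minus muscle, adjusted p = 0.103) and was not called, with 1 of the 4 members at an unadjusted p under 0.05, as were 3153 of all genes. DESeq2 called 1, and edgeR called 1 when skin FLASH 4 or skin CONV 1 was left out.

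The mixture of transcripts was tested in the same way. Of 31 tropomyosin transcripts tested in skin and 19 in muscle with limma, none passed in any treatment comparison. In skin, CONV against the rest called 0.0127% of 71041 transcripts, FLASH against CONV 0.00422%, and CONV against sham and FLASH against sham 0.0% each. In muscle, of 56636 transcripts, CONV against the rest and CONV against sham each called 0.00177% and the other comparisons 0.0%. At an unadjusted p under 0.05 there were 2 member transcripts in skin for CONV against the rest, 1 for CONV against sham and 0 for the other 2, and in muscle 2, 1, 0 for FLASH against sham and 1 for FLASH against CONV. Over all 71041 transcripts in skin, 8075 were under that level for CONV against the rest and 6287 for CONV against sham. FLASH against sham had 1598 there and FLASH against CONV 4902. Over all 56636 transcripts in muscle the counts were 2939, 3050, 2663 and 2946, in the same order of comparisons. Of the tropomyosin transcripts, edgeR's diffSpliceDGE also called 0 in each comparison. In skin CONV against the rest, the smallest p was that of Tpm3-202, at 0.0265 (adjusted p = 0.412), and in muscle that of Tpm3-204, at 0.0242 (adjusted p = 0.924). The median absolute log2 difference over these transcripts was 0.44 in skin and 0.57 in muscle for CONV against the rest, and 2.45 over the 32 transcripts compared between the tissues. Over all transcripts these medians were 0.42, 0.54 and 1.12.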

How the data were processed

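RNA from 20 skin and muscle libraries was sequenced after ribosomal RNA removal with a stranded total RNA kit, per the labels. The authors deposited, for each transcript and library, an estimated count and a TPM value from kallisto (version 0.5.0 with mm10, per the submitters' processing notes), with no pooling. The annotation release is not given in the sources used here. The files' effective lengths were not tested. Transcripts were matched by identifier without version to GENCODE M21 (GRCm38): 114322 of 116116 matched (98.5%), and the version was 1 above that of M21 for 98.7% of them. Unmatched transcripts were left out. Of the 45 tropomyosin transcripts 43 have the same length in both sources. Reads that fit several transcripts are apportioned by kallisto's model, so the split among overlapping transcripts is an estimate, and it is weakest for short transcripts contained in longer ones. TPM is relative to all transcripts of a library.

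Estimated counts were summed per gene, rounded, and tested with edgeR 4.0.16 (quasi-likelihood, robust, TMM, filterByExpr by group) in R 4.3.3, with Benjamini-Hochberg adjustment over all genes and a threshold of 0.05. Transcript shares were tested with limma 3.58.1 (robust, trend) on log2 ratios with 0.1 TPM added, for transcripts with a mean share of at least 1% in genes of at least 1 TPM, adjusted over all transcripts. Both tests were tried on simulated data first. DESeq2 1.42.0 and diffSpliceDGE were alternatives. Groups follow the deposited record. In skin, the file of sham 3 is named as a FLASH library and that of FLASH 1 as a sham library. In muscle, those of sham 2 and 3 are named as FLASH libraries, FLASH 2 and 3 bear sham names, and FLASH 1 bears the name of another FLASH library. All comparisons between sham, FLASH and CONV were repeated by library name. Transcripts with a mean share of 5% in a tissue were named, as were up to 4 partners that passed in a comparison by smallest p and the 3 genes of highest r (log2 CPM with a prior count of 2, mean CPM of at least 1), of which some are not reported here. Members and gene lists were chosen with earlier results of these data known. Replicate numbers did not pair the samples.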

Additional observations from a re-analysis of the deposited data

Results flagged for a closer look

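Only the FLASH groups have the 4 libraries needed to ask whether 1 library lies far from the others, by Dixon's criterion (the gap to the nearest library over the group's range). Of 44 gene levels and transcript shares examined, 7 did so. The criterion's nominal rate of about 1 in 20 is for independent, normally distributed values. Shares of a gene depend on each other and TPM is skewed, so the count cannot be judged against that rate. In skin, FLASH 2 had 5446 TPM of Tpm1 against 325 to 666 in the other 3, and 2562 TPM of Tpm2 against 113.7 to 258. The same library had 29390 CPM of fast fibre genes, against 352 to 2918 in the other 3. In muscle, FLASH 1 had 136 TPM of Tpm3 against 14.1 to 34.6, and 960 CPM of slow fibre genes against 27.4 to 280. The file of FLASH 1 bears the name of another FLASH library, while those of FLASH 2 and FLASH 3 bear sham names. By library name the FLASH libraries of muscle had 18.1, 74.9, 136 and 34.6 TPM of Tpm3. The criterion was applied to the groups by record only.

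The other 4 concern shares. Tpm3-211 was 4.25% of Tpm3 in skin FLASH 4 against 5.86% to 6.14% in the others. Tpm3-215 was 4.62% of Tpm3 in muscle FLASH 4 against 0 to 0.665%. Tpm4-201 was 97.4% and Tpm4-202 2.63% of Tpm4 in muscle FLASH 3, where the other 3 libraries were listed at the whole and at 0, so these are 1 observation. Tpm4 was at 6.07 to 13.8 TPM in those libraries. Sham names are borne by the files of FLASH 2 and FLASH 3 in muscle and of FLASH 1 in skin, so these groups differ by library name.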

How the results depend on the processing

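In skin, CONV against the rest called 1 of the 4 genes, Tpm4. DESeq2 called 2 and the replicate block 2 (adding Tpm3), beside 2071 and 1292 of all 20026 genes. Library totals without TMM called 0 (Tpm4 at 1.37, adjusted p = 0.05001), as did leaving out the libraries with disagreeing names (1.47, adjusted p = 0.231). Leaving out sham 1 and FLASH 2, chosen after seeing the data, also called 0. Leaving out 1 library gave 0 to 2 calls there, 0 to 1 in CONV against sham, in FLASH against CONV and in the interaction. DESeq2 called 2, 1 and 1 in those 3. The replicate block changed no other count of genes. It put Tpm3 between the tissues at 0.33 (adjusted p = 0.538), the opposite sign to the reported value, with neither called. Replicate numbers did not pair the samples: deviations of same-numbered libraries correlated at -0.77 to 0.55 within skin, -0.29 to 0.23 within muscle and -0.03 to 0.09 between tissues. Between the tissues, 26 transcripts were called, 8 of 11 tested with a mean share of at least 5%, and 12 of 15 with complete coding transcripts only (chosen after seeing the data), as fewer were tested. The main test called 52.4% of 72434 transcripts over all genes, and that share is not given here for the smaller sets. With 1 TPM added, Tpm4-201 reversed to 0.32 and Tpm4-202 to -0.32, and neither was called. diffSpliceDGE did not call Tpm1-205 (adjusted p = 0.145), Tpm2-203 (0.0582) or Tpm4-201 (0.954), nor Tpm3-206 and Tpm3-215, and Tpm3-206 lost its call under most single-library omissions. The cause was not tested. No other count of calls left the range of 1.5 times. Depth limits the low transcripts of muscle most.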
